A study of Mus musculus with 8 samples.

Results

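Adrenaline and noradrenaline are made from tyrosine in a chain that starts with tyrosine hydroxylase (Th), goes on with aromatic L-amino acid decarboxylase (Ddc) and reaches noradrenaline through dopamine beta-hydroxylase (Dbh). Monoamine oxidases A and B (Maoa and Maob), enzymes of the outer mitochondrial membrane, break these amines down. White fat receives sympathetic fibres that release noradrenaline, often together with neuropeptide Y (Npy), and noradrenaline drives lipolysis in adipocytes. The cell bodies of these neurons lie in ganglia outside the fat, so that a fat sample holds axons and their Schwann cells rather than neuron nuclei. Growth-associated protein 43 (Gap43) is a protein of growing axon tips. These 7 genes, of 18193 genes with a usable name, were followed through every probe set whose annotated symbol is exactly one of theirs, 11 probe sets of 45037. Where no probe set is named, a gene's value is that of its brightest one, by the mean of the 8 arrays.

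Gonadal adipose tissue was taken at 10 weeks of age from mice on a Swiss background that received no treatment. The control group holds 4 arrays labelled wild type and the knockout group 4 arrays labelled aP2-Pex5 -/-, a deletion of the peroxisomal import receptor Pex5 under the promoter of aP2 (Fabp4). That promoter is active in adipocytes and has also been described in other cells, and the tissue contains cells that do not use it. The titles number the controls 1, 2, 3 and 4 and the knockouts 6, 8, 9 and 10, and these numbers name the arrays here. Separate animals are not stated as the source of the 4 samples in a group. A p-value therefore covers the spread among samples, which may be technical. In whole tissue, fewer cells of a type and less RNA per cell cannot be told apart.

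The 8 arrays had medians between 6.45 and 6.52 on the log2 scale, and all 8 measured adipocyte markers lay above background on average, with their mean between 13.37 and 13.77 on every array. The mean of Pex5 was 9.38 ± 0.24 over the controls and 9.36 ± 0.10 over the knockouts (SD, n = 4 each). The labels do not place its probes relative to the deleted part, so this probe set does not check the labels. Markers of neighbouring organs differed between single arrays: albumin (Alb) ran from 7.87 on control 4 to 13.64 on control 1, the epididymal gene Adam7 read 10.14 on control 1 and 9.23 on knockout 8 against 4.53 to 6.13 elsewhere, and the epididymal lipocalin Lcn8 read 11.02 on knockout 8 against 4.39 to 4.75 elsewhere. The arrays also form 2 sets by the lower quartile of their values, controls 1 and 2 with knockouts 6 and 8 (set 1) and controls 3 and 4 with knockouts 9 and 10 (set 2). The labels name no batch that would correspond to these sets.

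Both monoamine oxidases gave clear signal in this fat, whereas Th and Gap43 were too dim to read. The deposited table holds no detection calls. A background level was therefore taken from 112 genes of odour, vomeronasal and bitter taste receptors and hair keratin-associated proteins. These families were assumed to be silent in fat, and whether single members are expressed there was not tested. The means of the 112 genes over the 8 arrays had a median of 4.17 and reached 7.66. Their 95th percentile, 6.31, was used as the level above which a gene counts as readable. Of all 18193 genes, 11768 (64.7%) lay above it. Among the members these were Maob, Maoa, Dbh, Ddc and Npy, while Th at a mean of 5.23 and Gap43 at 4.21 lay below it. Probe sets differ in their efficiency, so a value of one gene was not ranked against that of another.

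**Figure D1:**
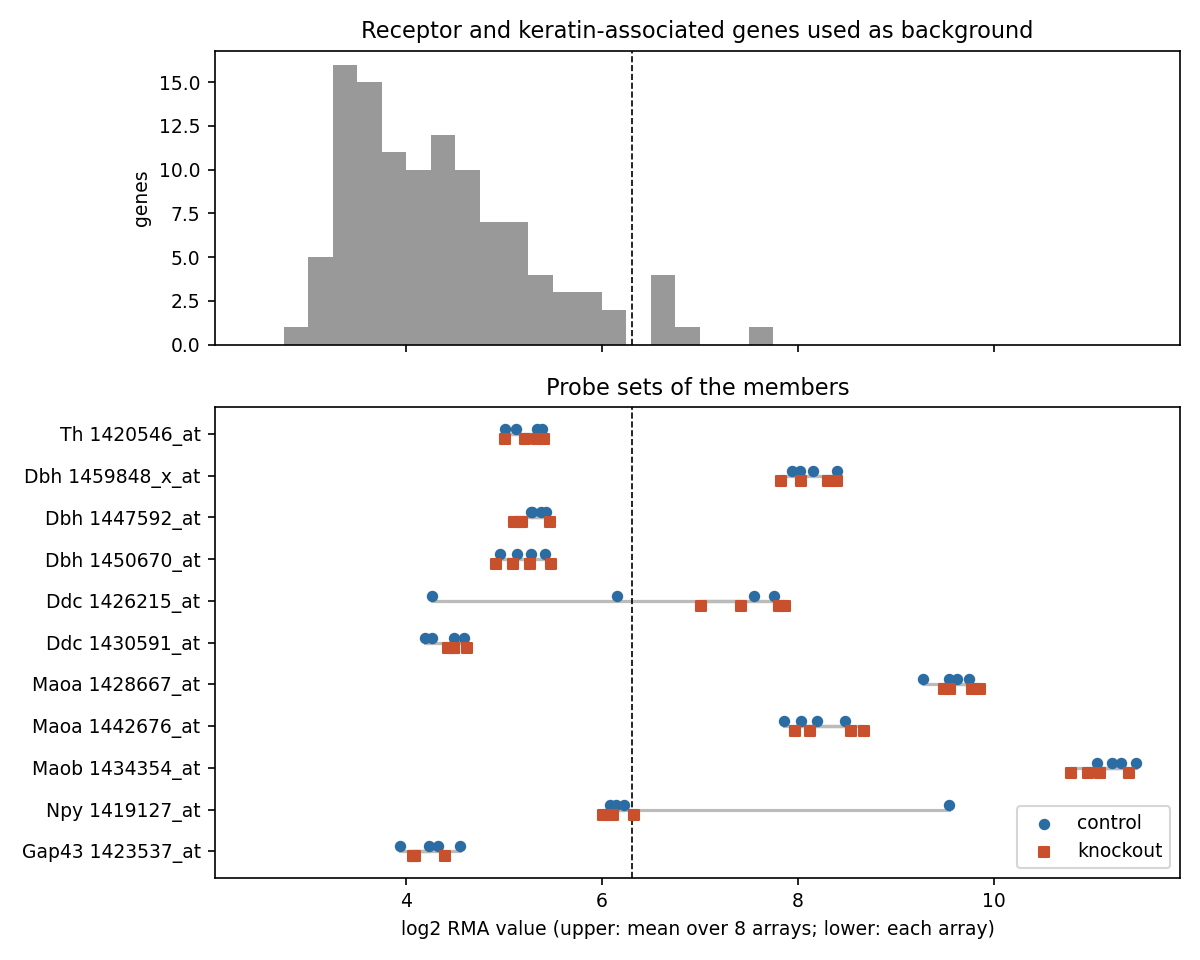
Upper panel: number of background genes by mean log2 value over 8 arrays. Lower panel: log2 RMA value of every probe set of the members on each array, controls as blue circles and knockouts as orange squares, with the background level of 6.31 as a dashed line. Both Maoa probe sets and the Maob probe set lie to the right of the line on all 8 arrays, and the probe sets of Th and Gap43 to the left on all 8.

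Readability rested on single probe sets or single arrays for the other 3 readable members. Dbh has 3 probe sets. Only 1459848_x_at exceeded the background level, on all 8 arrays. The suffix x marks a probe set with probes that may also match other transcripts. The other Dbh probe sets, 1450670_at and 1447592_at, averaged 5.19 and 5.28 and exceeded the level on 0 arrays. Ddc exceeded it with 1426215_at on 6 arrays, and with 1430591_at, at a mean of 4.45, on 0. Npy has 1 probe set, 1419127_at, which exceeded the level on 2 arrays, far above on control 1 (9.54) and by a narrow margin on knockout 10 (6.33). Without control 1 its mean was 6.14 and Npy too counted as too dim to read, which leaves 4 readable members of 7.

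None of the 7 genes passed the test between knockout and control. Knockout was compared with control by limma over all 18193 genes, where 0 genes (0%) had a Benjamini-Hochberg adjusted p under 0.05. The smallest adjusted p over all genes was 0.999, which is also that of every member. An unadjusted p under 0.05 was reached by 466 genes (2.56%) and by 1139 of 45037 probe sets taken singly (2.53%), and by 0 of the 7 members and 0 of their 11 probe sets. These counts depended on single arrays: 1566 genes reached it without control 4, 310 without knockout 8 and 283 without knockout 10, and Maob and the Dbh probe set 1447592_at reached it without knockout 9. In that limma fit Maob differed by -0.31 (adjusted p = 0.986) and 1447592_at by -0.19 (adjusted p = 0.994). The groups did not overlap in 310 genes (1.7%), again with 0 of the members. For genes above background the 95% interval of a difference reached 0.25 to either side at the median. Among the members the intervals were widest for Ddc and Npy.

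**Figure D2:**
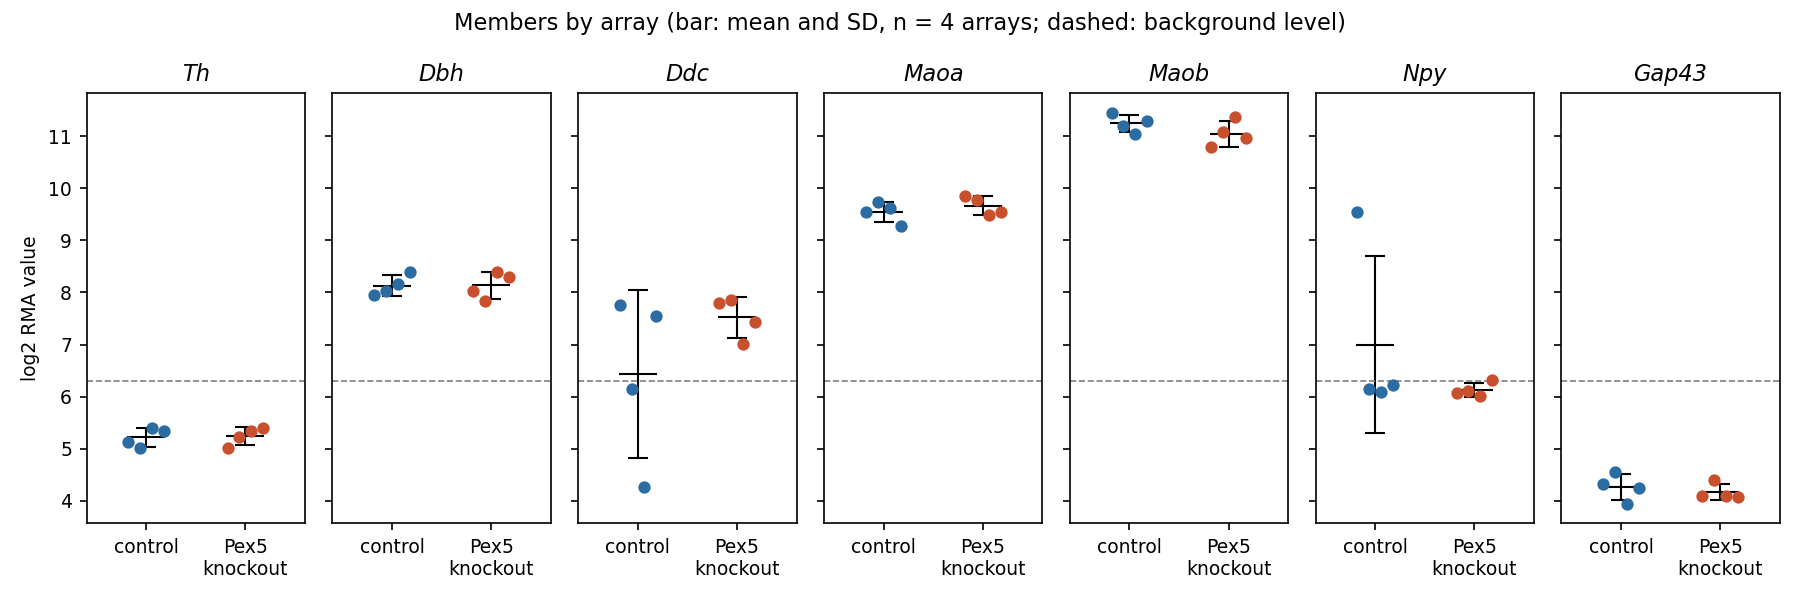
Log2 RMA value of the 7 genes on each of the 8 arrays, with controls in blue and knockouts in orange; bars give the mean and SD of 4 arrays, and the dashed line is the background level. The groups overlap in every gene, Ddc spans 4.27 to 7.86, and the wide control bar of Npy comes from control 1 at 9.54.

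Synthesis begins with Th, the rate-limiting enzyme of the chain, whose probe set 1420546_at stayed at background. It read 5.12, 5.01, 5.39 and 5.34 on controls 1 to 4 and 5.01, 5.21, 5.34 and 5.40 on knockouts 6, 8, 9 and 10. The groups covered nearly the same span, with means of 5.22 ± 0.18 and 5.24 ± 0.18 (SD, n = 4 each) and a difference, knockout minus control, of 0.026 with a 95% interval of -0.25 to 0.30. The small spread that is present followed the array sets, at most 5.21 on the 4 arrays of set 1 and at least 5.34 on the 4 of set 2. Because the sets were drawn from the lower quartile of each array, a dim gene such as Th may follow them by construction. At this signal a difference in Th transcript between groups was not readable.

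Dbh, which turns dopamine into noradrenaline inside the vesicle, was level between groups on its bright probe set. With 1459848_x_at the controls read 7.94, 8.02, 8.16 and 8.40 and the knockouts 8.04, 7.83, 8.40 and 8.30. The difference was 0.011 with an interval of -0.33 to 0.35. The dim probe sets gave -0.0077 (1450670_at) and -0.11 (1447592_at), so that the sign was not shared by the 3. Like Th, the bright probe set differed by array set, with 7.83 to 8.04 in set 1 and 8.16 to 8.40 in set 2. Such a split is common on these arrays, since 2625 genes (14.4%) had sets that did not overlap. Whether 1459848_x_at reads Dbh was not tested. The dim 1450670_at was divided the same way, with 4.92 to 5.13 in set 1 and 5.27 to 5.48 in set 2. No correlation between the Dbh probe sets over the 8 arrays is therefore given, and 4 arrays are too few for one within a set.

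Ddc, the decarboxylase that makes dopamine and also serotonin, varied more between arrays than between groups. It read 7.76, 6.15, 4.27 and 7.55 on controls 1 to 4 and 7.81, 7.86, 7.02 and 7.42 on knockouts 6, 8, 9 and 10. Controls 1 and 4 lay within the knockout range, and controls 2 and 3 below it, control 3 among the background genes. The control mean was 6.43 ± 1.61 and the knockout mean 7.53 ± 0.39 (SD, n = 4 each). The difference of 1.10 had an interval of -0.51 to 2.71 (limma adjusted p = 0.999; two-sided exact permutation p = 0.286). It depended most on control 3, without which it was 0.38, while it was 1.003 without control 2. It was 0.88 within set 1, which holds control 2 and not control 3, and 1.31 within set 2. The dim probe set 1430591_at was also lowest on controls 3 (4.19) and 2 (4.26), within a span that ended at 4.62. Its r with the bright probe set was 0.82 (exact permutation p = 0.0274, adjusted p = 0.0456 over 5 probe set pairs of the members; rho = 0.28, exact permutation p = 0.507). That relation rests on controls 2 and 3, since r was -0.34 without them.

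The genes whose pattern over the 8 arrays was most like that of Ddc, among 11767 other readable genes, were Myb, a transcription factor, Bex4 and Cldn7, a claudin of epithelial tight junctions, each at r = 0.998 (rho = 0.976, 1 and 0.976). Without controls 2 and 3 the r values were 0.97, 0.97 and 0.98. They are the highest of many, so they describe the pattern and carry no p. Myb read 6.73 on control 2 and 4.54 on control 3 against 7.61 to 8.64 elsewhere, and Cldn7 7.49 and 5.13 against 8.27 to 9.24. Members of the marker lists, picked out after their values were seen, showed the same 2 low arrays. The endocytic receptor Lrp2, listed under kidney tubule, read 8.0004 on control 2 and 6.29 on control 3 against 8.96 to 9.85 elsewhere. The oestrogen-regulated gene Greb1 read 7.92 and 4.92 on these controls against 9.13 to 10.12 elsewhere. Krt8, a keratin listed under mesothelium, read 9.11 and 8.44 against 9.92 to 10.85, and its partner keratin Krt18, from the same list, 8.31 and 8.01 against 9.07 to 10.22.

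As whole lists these markers were mixed. Of 12 kidney tubule genes 5 were readable, Lrp2 among them, and 7 were not (Slc34a1, Slc22a6, Cubn, Miox, Umod, Slc12a1 and Slc12a3). The mean of the readable ones ran from 6.73 to 7.43 in control and from 7.41 to 7.52 in knockout. Of 10 genes of ovary, oviduct and uterus 4 were readable, and Ovgp1, Pgr, Hoxa10, Hoxa11, Fshr and Inha were not; their mean ran from 6.49 to 7.63 in control and from 7.45 to 7.70 in knockout. Of 8 mesothelial genes all were readable (8.80 to 9.18 in control, 8.07 to 9.35 in knockout), but they did not move together. On control 3, where Ddc, Krt8 and Krt18 were lowest, Msln (9.57), Upk1b (9.015) and Lrrn4 (9.62) were highest and Upk3b (11.13) and Wt1 (7.86) next to highest. The third keratin of the list, Krt19, was lowest on control 2 (9.20) and next lowest on control 3 (9.77), against 9.79 to 10.32 elsewhere. Its groups did not overlap (9.20 to 9.80 in control, 9.88 to 10.32 in knockout), as in 1.7% of all genes (limma adjusted p = 0.999). The part of other cell types in the Ddc values was not tested.

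RefSeq lists 2 starts of Ddc on GRCm38.p6, 7736 bases apart on the minus strand of chromosome 11, and the labels do not say which transcripts the 2 probe sets read. The 250 bases before each start are shown because Ddc is the synthesis gene whose values differed most between arrays. The upstream window lies at chr11:11898145-11898394 and the downstream one at chr11:11890409-11890658, both minus strand and 5′ to 3′. Capitals mark TATAAA, the letters of the TATA box, on either strand. The other motifs searched were GGGCGG (GC box), TGACGTCA (cAMP response element) with its first 5 letters TGACG, and GTTAAT (HNF1 half-site). No exact copy of these lay in either window, and inexact copies were not searched.
Ddc, upstream start: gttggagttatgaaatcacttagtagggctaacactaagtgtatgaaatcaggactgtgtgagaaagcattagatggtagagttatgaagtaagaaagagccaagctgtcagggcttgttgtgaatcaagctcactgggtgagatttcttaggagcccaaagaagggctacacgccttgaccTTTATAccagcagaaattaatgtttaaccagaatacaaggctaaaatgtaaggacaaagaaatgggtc
Ddc, downstream start: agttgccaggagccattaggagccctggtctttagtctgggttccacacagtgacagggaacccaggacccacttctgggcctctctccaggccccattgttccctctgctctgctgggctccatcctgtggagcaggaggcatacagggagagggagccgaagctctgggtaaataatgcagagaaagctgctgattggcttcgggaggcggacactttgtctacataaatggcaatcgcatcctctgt
The upstream window has the letters TATAAA on the opposite strand, 62 bases before the start. Whether they act as a TATA box of this start was not tested. Of 32851 RefSeq windows of this length 12.4% hold TATAAA on either strand. The upstream window is 40.8% G and C, and the downstream window 56.0%.

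Breakdown genes were the best measured of the 7. Maoa, which prefers noradrenaline and serotonin, was read by a pair of probe sets that gave the same order of the 8 arrays. With 1428667_at the controls read 9.54, 9.74, 9.62 and 9.27 and the knockouts 9.86, 9.78, 9.49 and 9.55. Control 4 was the lowest and knockout 6 the highest array, and the groups overlapped. The means were 9.54 ± 0.20 and 9.67 ± 0.18 (SD, n = 4 each). Knockout minus control was 0.12, and its interval ran from -0.16 to 0.41 (limma adjusted p = 0.999; two-sided exact permutation p = 0.429). The second probe set, 1442676_at, read 7.86 to 8.48 in control and 7.97 to 8.67 in knockout and differed by 0.18. The r between the probe sets was 0.96 (exact permutation p = 4.96e-05, adjusted p = 0.000248) and rho was 1 (exact permutation p = 4.96e-05, adjusted p = 0.000248); r was 0.99 without the 2 arrays farthest from the median. Both probe sets thus read the same variation between arrays, and the difference between groups was smaller than it. In both, controls 1 and 4 and knockout 9 read lowest, the arrays set apart by the RNA quality measure given below. The permutation p treats all orders of the 8 arrays as equally likely and does not allow for RNA quality.

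Maob, which prefers phenylethylamine, leaned the other way without passing. Its probe set 1434354_at read 11.45, 11.20, 11.05 and 11.30 in control and 10.79, 11.08, 11.38 and 10.96 in knockout. Knockout 6 was lowest and control 1 highest. The means were 11.25 ± 0.17 and 11.05 ± 0.25 (SD, n = 4 each). Knockout minus control was -0.20, and its interval ran from -0.51 to 0.12 (limma adjusted p = 0.999; two-sided exact permutation p = 0.229). It was -0.39 within set 1 and -0.0019 within set 2. In RefSeq's gene table Maoa and Maob are neighbours on the X chromosome, with 0 genes listed between them.

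A measure of RNA quality moved with both oxidases. The arrays carry control probe sets for both ends of pyruvate carboxylase. Their 3' minus 5' value, which grows as transcripts are shortened, was 3.97 on control 1, 4.83 on control 4 and 4.65 on knockout 9, and 1.59 to 2.10 on the other 5 arrays. On these 3 arrays Maob had its 3 highest values and Maoa its 3 lowest. With this measure as a covariate in the limma fit the difference was 0.067 for Maoa and -0.13 for Maob, against 0.12 and -0.20 without it, and neither passed (adjusted p = 0.978 for each). Genes most like Maoa in pattern were Paqr7 (r = 0.97, rho = 0.98), Kif3b (0.96, 0.98) and Nedd8 (0.95, 0.98). With control 4 and knockout 6 left out, their r was 0.92, 0.87 and 0.81. Those most like Maob were Hsd11b1, which regenerates active glucocorticoid in fat (r = 0.94, rho = 0.88), Zfp961 (0.94, 0.90) and Gstp1 (0.93, 0.90). For Dbh they were Msl1 (0.97, 0.98), Atxn7l2 (0.96, 0.98) and Ak5 (0.96, 0.88). Each is the highest of 11767 and is given as a description.

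Npy was far above background on 1 array and just above it on another. The probe set read 9.54 on control 1, and 6.14, 6.08 and 6.23 on controls 2, 3 and 4. The knockouts read 6.08, 6.11, 6.01 and 6.33. Control 1 stood 3.22 above the next array, which lay at the background level, so that it was at least 9.30-fold higher, and the other 7 arrays lay within 6.01 to 6.33 whatever their group. With all arrays the means were 6.998 ± 1.70 and 6.13 ± 0.14 (SD, n = 4 each) and the difference was -0.87 with an interval of -2.52 to 0.79 (limma adjusted p = 0.999; two-sided exact permutation p = 0.4). Without control 1 the controls averaged 6.15 ± 0.08 (SD, n = 3) and the difference was -0.019 with an interval of -0.24 to 0.21. The lower knockout mean rested on control 1.

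Control 1 also stood apart in genes of other tissues. The genes most like Npy in pattern were Cyp17a1, the steroid 17-hydroxylase (8.31 on control 1 and 6.24 to 6.41 elsewhere; r = 0.996, rho = 0.52), Ces5a, a secreted carboxylesterase known from the epididymis (10.66 and 8.32 to 8.73; r = 0.99, rho = 0.64), and Urah (8.04 and 6.69 to 6.84; r = 0.99, rho = 0.24). Their r fell to 0.20, 0.43 and 0.59 when control 1 and knockout 10 were left out, so the likeness rests on control 1. Of 9 measured epididymis markers Adam7 was the only one readable on average. On control 1 Adam7 (10.14), Lcn5 (6.64) and Spint4 (6.62) exceeded the background level, and Crisp4 had its highest value there (4.94), below that level. Spint4 read 4.34 to 4.75 on the 7 arrays other than control 1. Lcn5 also read 6.48 on knockout 10, and 4.59 to 5.16 elsewhere. Every other epididymis marker lay below the background level on knockout 10, Adam7 (6.13) included. Npy read 6.33 there, the top of the narrow span from 6.01 that the 7 arrays other than control 1 covered. On knockout 8, where Npy was 6.11, Adam7 (9.23), Lcn8, Lcn9, Cst11 and Rnase10 exceeded the level, and Defb15 did so on 0 arrays. Of 10 measured liver markers 6 were readable (not Fgb, Ambp, Hpd and Tat), and their mean was 11.34 on control 1, 6.25 to 8.52 on the other controls and 6.11 to 9.25 on the knockouts. Xist, the RNA of the inactive X chromosome, read 8.27 on control 1 and 5.55 to 6.20 on the other 7 arrays, while the Y-linked Eif2s3y read 10.12 to 10.54 on all 8. The part of these tissues in the Npy signal of control 1 was not tested.

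**Figure D3:**
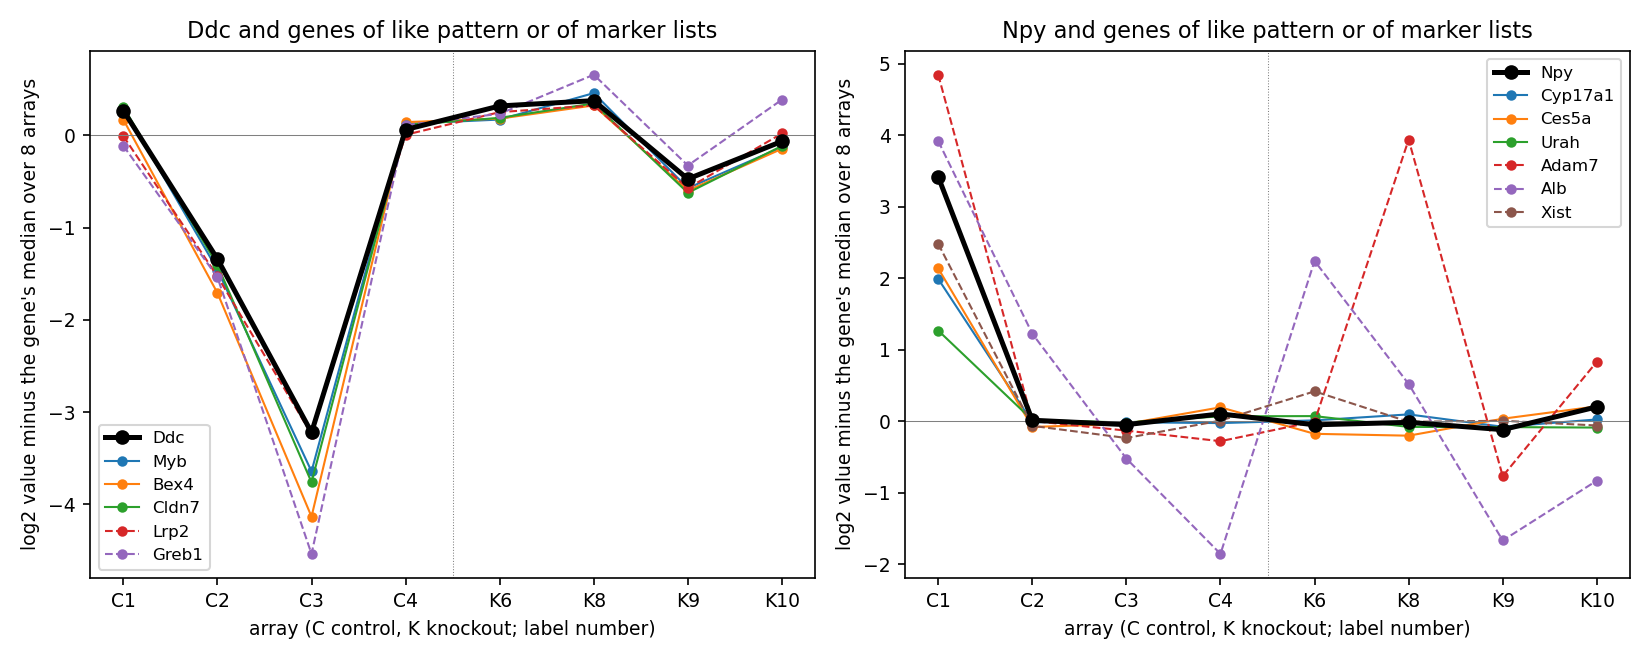
Log2 value minus each gene's own median over the 8 arrays, for controls (C) 1 to 4 and knockouts (K) 6, 8, 9 and 10. Left, Ddc in black with its 3 most alike genes (solid) and Lrp2 and Greb1 from the marker lists (dashed), all lowest on control 3 and next lowest on control 2. Right, Npy in black with its 3 most alike genes (solid) and Adam7, Alb and Xist (dashed); all are highest on control 1, and Adam7 has a further peak on knockout 8.

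The Npy promoter window is shown because Npy, the neuropeptide of these fibres, was clearly read on a single array. It is the 250 bases before the RefSeq start at chr6:49822460-49822709 of GRCm38.p6, plus strand, 5′ to 3′, with GGGCGG, the GC box searched on both strands, in capitals.
Npy: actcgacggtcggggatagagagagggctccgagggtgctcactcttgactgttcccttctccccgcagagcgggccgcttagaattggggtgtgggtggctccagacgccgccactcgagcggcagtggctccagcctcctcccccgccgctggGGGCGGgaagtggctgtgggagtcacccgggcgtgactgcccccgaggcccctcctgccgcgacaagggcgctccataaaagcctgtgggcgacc
The GC box lies 89 bases before the start in a window that is 69.2% G and C, and 32.7% of all windows hold one. Of the 7 members 5 have a start in the table, 6 starts in all; Maob and Gap43 have none. The complete cAMP response element TGACGTCA, present in 1.55% of all windows, occurred before the start of Th alone among these 6, ending 37 bases before it.

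Gap43, the axon protein, stayed among the background genes. Its probe set 1423537_at read 4.33, 4.55, 3.94 and 4.23 in control and 4.10, 4.396, 4.08 and 4.07 in knockout. The difference was -0.10 with an interval of -0.42 to 0.21, and the groups overlapped. As for Th, no level in fat can be read from it.

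Most transcripts of neurons were too dim to read, whereas all measured genes of cofactor synthesis and further breakdown lay above background. Of 17 measured genes of neurons and axons 14 lay below background, among them the filament genes Nefl, Nefm, Nefh, Ina and Prph, the synaptic genes Snap25, Syt1 and Syn1, and Phox2a and Hand2, which specify noradrenergic neurons. The 3 readable ones, Stmn2, Syp and Isl1, were lower in knockout on average, where 54.6% of all readable genes were lower, and 0 passed. Their median difference was -0.077, and ran from -0.25 without control 4 to 0.086 without control 3. Stmn2, a tubulin-binding axon protein, read 6.96 ± 0.44 and 6.88 ± 0.14 (SD, n = 4 each). Isl1, a LIM homeodomain factor, read 4.60 on knockout 6 against 6.07 to 7.5004 elsewhere, with a difference of -0.55 (interval -1.77 to 0.68). Its mean of 6.42 lay just above the background level, which it exceeded on 5 arrays. Knockout 6 also had the lowest mean of the 8 mesothelial markers, 8.07, where the other 7 arrays lay between 8.80 and 9.35. Krt8 (10.37), Krt18 (9.66) and Krt19 (9.89) of that list were not low there. The macrophage markers had their lowest mean on this array too, 9.73 against 10.0003 to 10.68 elsewhere. So did the 6 readable mast cell markers of 9, at 7.30 against 7.92 to 8.57, though Hdc among them was highest there (9.13). The part of these cell types in the Isl1 values was not tested.

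Schwann cell markers did not set the groups apart. Of 8 measured genes 7 were readable, and Cdh19 was not. Their mean ran from 8.07 to 8.75 in control and from 8.15 to 8.68 in knockout. S100b, a calcium-binding protein of Schwann cells that adipocytes also make, read 5.07 on control 4 and 6.11 and 6.02 on knockouts 6 and 8, and 8.99 to 10.29 on the other 5 arrays. Erbb3, the neuregulin receptor, was lowest on controls 3 (6.31) and 2 (7.25), the same arrays as Ddc, against 8.14 or more elsewhere.

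Genes that supply or handle the amines were followed from lists chosen with earlier results of these data known, and 0 of them passed over all genes (lowest limma adjusted p = 0.999). All 7 genes of tetrahydrobiopterin and adrenaline synthesis were readable, 3 higher and 4 lower in knockout, with a median difference of -0.0071 against -0.011 over all readable genes. It ran from -0.069 without knockout 9 to 0.095 without knockout 6. Gch1, which starts synthesis of the cofactor that Th needs and whose mean of 6.86 lay under the 99th percentile of the background genes (6.88), read 7.05, 7.06, 7.16 and 6.77 in control and 6.82, 6.83, 6.48 and 6.70 in knockout. Only control 4 lay within the knockout range. The difference was -0.31 (interval -0.57 to -0.049, unadjusted limma p = 0.0250, two-sided exact permutation p = 0.0857), and 2.54% of readable genes had an unadjusted p under 0.05. Spr, which completes the cofactor, read 8.89 ± 0.12 and 9.07 ± 0.15 (SD, n = 4 each), which is 0.17 apart (interval -0.054 to 0.40).

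Of 10 measured genes of storage, release and uptake 4 were readable (3 higher, 1 lower). Their median difference was 0.084, and ran from 0.022 without control 2 to 0.17 without control 4. The vesicular transporter of neurons Slc18a2 was too dim at 4.45, as were Chga, Chgb, Scg2, Slc6a3 and Slc22a2. The noradrenaline transporter Slc6a2 lay just above the level at 6.56 and differed by -0.0037. Slc18a1, whose mean of 6.37 was also close to the level and which exceeded it on 5 arrays, differed by 0.15 (interval -0.044 to 0.35). Slc29a4, a low-affinity amine transporter, differed by 0.071 (-0.21 to 0.35). All 4 measured genes of further breakdown were readable (3 higher, 1 lower), with a median of 0.046 that ran from 0.020 without knockout 6 to 0.098 without control 4. Aldh1a1, an aldehyde dehydrogenase, differed by 0.32 (-0.29 to 0.93), and Akr1a1, an aldehyde reductase, differed by 0.044 (-0.12 to 0.21).

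Of 8 measured genes that process neuropeptide Y or receive it, 3 were readable (2 higher, 1 lower), with a median of 0.0093 that ran from -0.071 without control 2 to 0.11 without control 3. The receptor of adipocytes Npy1r averaged 6.58 ± 0.33 over the controls and 6.56 ± 0.23 over the knockouts (SD, n = 4 each). It exceeded the background level on 7 arrays and differed by -0.019 (interval -0.43 to 0.39). Npy2r, Npy4r and Npy5r were too dim. Cpe, a carboxypeptidase of peptide hormones, differed by 0.099 (-0.42 to 0.62). Of 12 measured neurotrophic factors and receptors 7 were readable (5 higher, 2 lower), with a median of 0.12 that ran from 0.037 without control 1 to 0.21 without control 3. An unadjusted p under 0.05 was reached by 2 of these 7, against 2.54% of all readable genes.

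Those 2 were a ligand and the signalling receptor of its family. Ret, the receptor tyrosine kinase of the GDNF family, read 7.69, 7.82, 6.94 and 7.93 in control and 8.58, 8.22, 8.03 and 8.51 in knockout. It was higher on 4 of 4 knockout arrays than on any control, which held in one direction or the other for 1.7% of all genes, and knockout 9 exceeded control 4 by little. The difference was 0.74 (interval 0.23 to 1.26, unadjusted limma p = 0.0104, adjusted p = 0.999; two-sided exact permutation p = 0.0286, the smallest that 4 against 4 arrays allow). Nrtn, neurturin, a ligand of that family, read 7.49, 7.40, 6.62 and 7.49 in control and 7.74, 8.06, 7.46 and 8.19 in knockout. Knockout 9 lay within the control range. The difference was 0.61 (0.079 to 1.15, unadjusted limma p = 0.0293, adjusted p = 0.999; two-sided exact permutation p = 0.0857). Both were lowest on control 3, the array on which Ddc and Erbb3 were lowest too. Of the GDNF family receptors of this list, Gfra2 and Gfra3 were readable. Gfra2 differed by 0.12 (interval -0.14 to 0.37) and Gfra3 by 0.046 (-0.23 to 0.32). Gdnf, Artn, Bdnf, Ngfr and Gfra1 were too dim.

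Cells that meet sympathetic fibres in fat include vascular smooth muscle, which they innervate, and macrophages, which can take up noradrenaline and break it down. All 8 smooth muscle markers were readable and had a higher mean in knockout, with a median difference of 0.37 and 0 past the threshold. The groups overlapped in every one. Of all readable genes 54.6% had a lower mean in knockout. The mean of the list ran from 8.35 to 9.16 in control and from 8.89 to 9.11 in knockout, and was highest on control 4. Acta2, Myh11 and Cnn1 were lowest on controls 2 and 3, as Ddc was. Cnn1 read 6.21 and 6.15 there against 7.13 to 8.02 elsewhere. The remaining markers did not have both of these arrays lowest. Of 10 macrophage markers, all readable, 8 had a lower mean in knockout (median -0.19, 0 past the threshold), and their mean ran from 10.0003 to 10.68 in control and from 9.73 to 10.22 in knockout. The part of either cell type in the values of the members was not tested.

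**Figure D4:**
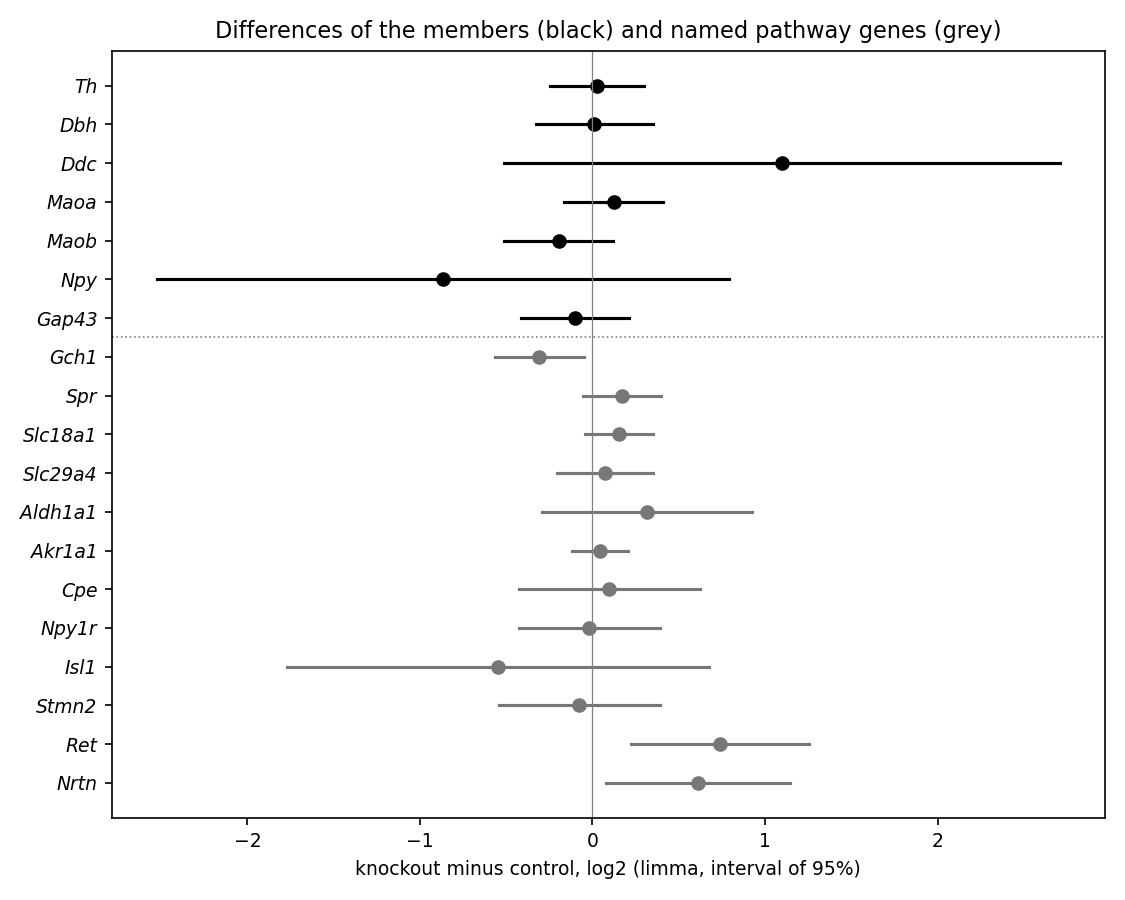
Difference in log2 value, knockout minus control, with its 95% interval from limma (4 arrays against 4), for the 7 members in black and the 2 genes named from each pathway list in grey. The intervals of all 7 members contain 0 and are widest for Ddc and Npy; those of Gch1, Ret and Nrtn do not contain 0 before adjustment, and 0 genes passed after it.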

How the data were processed

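RNA from 8 samples was measured on 8 Affymetrix mouse arrays. The authors made the deposited log2 values with RMA, per the submitters' processing notes, which give no version. RMA compresses differences near background, and 4 arrays per group limit the precision. Of 45101 probe sets, 64 Affymetrix controls were left out; 34945 had 1 symbol in the 2016 platform annotation, 932 several (not used for names) and 9160 none. The symbols of all 7 members matched RefSeq (GRCm38.p6) by Entrez number. Each of 18193 genes was its brightest probe set by mean. Groups were compared with limma 3.58.1 in R 4.3.3 (lmFit, eBayes), adjusted by Benjamini-Hochberg at 0.05 over all genes, with intervals of 95%. The step was tested on simulated data. Exact permutation tests over the 70 arrangements were two-sided. Members and lists were chosen with earlier results of these data known. Named genes were the 7 members, the 2 readable genes of smallest unadjusted p in each pathway list, the 3 genes of highest Pearson r with each readable member, and Pex5. Genes outside that rule were picked after their values were seen. Alternatives were a variance trend, a dim-gene filter, renormalisation, averaged or separate probe sets, array weights, the array sets, RNA quality, a plain test per gene, other background levels and leaving out each array. Figures were drawn with matplotlib 3.10.9.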

Additional observations from a re-analysis of the deposited data

Results flagged for a closer look

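In 6 of 68 groups of 4 arrays 1 array stood far from the other 3 by Dixon's 95% criterion; chance gives about 1 in 20. Among the members these were Npy on control 1, at 9.54, and Gap43 on knockout 8, at 4.396, the latter within a span too dim to read. Nrtn was low on control 3, at 6.62. Among marker means, the macrophage markers were low on knockout 6, at 9.73, Adam7 as the 1 epididymis marker readable on average was high on control 1, at 10.14, and the readable sex-linked genes were high on knockout 9, at 9.07.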

How the results depend on the processing

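The count of genes past the threshold was 0 in every alternative run and from 0 to 0 when each array was left out; at an unadjusted p under 0.05 it was 466 with limma, 1278 within set 1 and 244 within set 2, 703 with the array set as a block, 1039 with array weights, 283 (without knockout 10) to 1566 (without control 4) with 1 array left out, 511 with a plain test per gene and 1139 of 45037 with every probe set alone. No member passed in any alternative; the lowest adjusted p was 0.603, for Ddc without control 4. Signs turned for Dbh with array medians subtracted (-0.017), a gene's probe sets averaged (-0.037) and within set 1 (-0.050), for Th with array medians subtracted (-0.00179), and for Npy within set 2 (0.014). Leaving out each array, differences ran from -0.044 to 0.10 for Th, -0.074 to 0.11 for Dbh (1459848_x_at; -0.11 to 0.083 for 1450670_at), 0.38 to 1.54 for Ddc, 0.034 to 0.19 for Maoa, -0.31 to -0.11 for Maob, -1.17 to -0.019 for Npy and -0.21 to -0.0063 for Gap43, and readable members from 4 to 5. The number was 4 with the 99th percentile as background level. The median of neurotrophic genes ran from 0.037 to 0.21 over these fits, and was 0.046 with averaged probe sets, 0.20 within set 1 and 0.033 within set 2; that of Npy processing and receptors was 0.34 within set 1. The causes were not tested. Dim signal limits Th, Gap43 and most neuron genes. No paired analysis was possible because the groups share no replicate numbers.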
